A study of Mus musculus with 6 samples.

Results

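H3K79me2 was examined at the loci of 5 transcription factor genes of blood stem and progenitor cells, Runx1, Erg, Myb, Gata2 and Mecom, in mouse leukaemia driven by MN1. The members are the H3K79me2 peaks that overlapped, by 1 bp or more, a window set around each gene in the mm9 build, and they were chosen by position alone, with no use of their measured values. The windows were chr16:92600000-92828000 for Runx1, chr16:95358000-95588000 for Erg, chr10:20843000-20883000 for Myb, chr6:88142000-88158000 for Gata2 and chr3:29848000-30410000 for Mecom. They held 7 of the 18992 peaks in the deposited list. Runx1, Myb and Gata2 each lay under 1 domain with a fold of at least 4. The Runx1 domain was broad, 220.7 kb, with a moderate fold of 5.50. Those of Myb and Gata2 were narrower, 48.9 and 21.6 kb, with folds of 9.62 and 9.27. Mecom carried almost no mark. The window given for Erg held 2 weak peaks, but the peaks around it put Erg about 222 kb away, by an estimate made after the peaks had been seen, and a broad and strong domain lies there.

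The material was chromatin precipitated with an anti-H3K79me2 antibody (ab3594, 3 libraries), set against input chromatin taken without antibody (3 libraries). Both came from C57BL/6 leukaemic blasts sorted from the marrow of moribund mice that had received CMP cells transformed with MN1, and all 6 libraries carried Dot1l f/f alleles that had not been inactivated. The blasts were cultured briefly in M3234 medium with FBS, Il3, Il6 and SCF before harvest, so the profile is that of expanded, cultured blasts, and the labels do not say whether numbered libraries came from different mice. The libraries were combined into 1 peak list with no value per library and no read totals, so no spread between replicates can be given, no test was possible for any difference between loci, and the labelled cell type was not checked against markers because the list names no genes.

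H3K79me2 is the dimethyl mark placed on histone H3 by DOT1L, a methyltransferase that travels with the transcription machinery, and it lies mostly over the bodies of transcribed genes from shortly downstream of the start site. RUNX1 is the DNA-binding subunit of core-binding factor, ERG is an ETS-family factor, GATA2 is a zinc-finger factor and MYB drives the proliferation of immature blood cells. MECOM encodes EVI1, and from a start site farther upstream the longer MDS1-EVI1 protein, both known from stem cell self-renewal and from aggressive myeloid leukaemia.

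All 5 genes had promoters in a RefSeq table of the build GRCm38.p6, 10 in all, each covering 250 bases before and 50 after a start site. Of these, 6 are printed: both Runx1 start regions, the Myb start, the first Gata2 start and the last Erg start, to be set beside the domains described below, and the second Mecom start as that of a gene with almost no mark. Capitals mark CG pairs, the letters run 5′ to 3′ along the gene, and the coordinates are of GRCm38.p6 and must not be read against the mm9 peaks.
Runx1 first promoter (chr16:92826025-92826324, minus strand): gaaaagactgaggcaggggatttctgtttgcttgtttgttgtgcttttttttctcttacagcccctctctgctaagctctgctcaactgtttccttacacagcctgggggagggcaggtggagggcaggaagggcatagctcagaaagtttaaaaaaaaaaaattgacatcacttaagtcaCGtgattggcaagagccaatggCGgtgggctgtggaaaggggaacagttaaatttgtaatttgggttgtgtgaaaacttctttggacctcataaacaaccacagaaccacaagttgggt
Runx1 second promoter (chr16:92697280-92697579, minus strand): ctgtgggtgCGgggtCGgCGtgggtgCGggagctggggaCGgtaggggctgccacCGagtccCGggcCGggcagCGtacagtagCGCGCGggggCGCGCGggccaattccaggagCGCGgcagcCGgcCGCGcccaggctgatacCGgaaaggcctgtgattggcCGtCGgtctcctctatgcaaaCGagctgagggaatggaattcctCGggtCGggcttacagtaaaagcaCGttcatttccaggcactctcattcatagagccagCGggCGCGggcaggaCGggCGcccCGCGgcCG
Myb promoter (chr10:21160935-21161234, minus strand): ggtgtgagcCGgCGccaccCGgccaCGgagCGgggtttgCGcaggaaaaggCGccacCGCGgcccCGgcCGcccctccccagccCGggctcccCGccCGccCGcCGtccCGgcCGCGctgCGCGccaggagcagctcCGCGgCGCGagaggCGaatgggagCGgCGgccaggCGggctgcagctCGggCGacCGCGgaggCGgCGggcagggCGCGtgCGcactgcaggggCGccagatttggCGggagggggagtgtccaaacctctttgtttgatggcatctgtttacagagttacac
Gata2 first promoter (chr6:88193641-88193940, plus strand): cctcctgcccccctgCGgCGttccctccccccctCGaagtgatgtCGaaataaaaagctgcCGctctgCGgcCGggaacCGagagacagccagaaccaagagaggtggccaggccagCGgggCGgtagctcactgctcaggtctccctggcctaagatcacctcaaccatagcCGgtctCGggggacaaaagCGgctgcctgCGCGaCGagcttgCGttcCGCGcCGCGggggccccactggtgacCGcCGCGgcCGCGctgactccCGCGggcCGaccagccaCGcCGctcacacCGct
Erg last promoter (chr16:95459299-95459598, minus strand): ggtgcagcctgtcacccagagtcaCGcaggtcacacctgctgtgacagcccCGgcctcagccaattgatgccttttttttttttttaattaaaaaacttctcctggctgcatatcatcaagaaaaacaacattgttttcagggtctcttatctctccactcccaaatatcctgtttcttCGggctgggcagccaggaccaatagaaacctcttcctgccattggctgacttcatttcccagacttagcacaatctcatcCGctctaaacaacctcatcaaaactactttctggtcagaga
Mecom second promoter (chr3:30013155-30013454, minus strand): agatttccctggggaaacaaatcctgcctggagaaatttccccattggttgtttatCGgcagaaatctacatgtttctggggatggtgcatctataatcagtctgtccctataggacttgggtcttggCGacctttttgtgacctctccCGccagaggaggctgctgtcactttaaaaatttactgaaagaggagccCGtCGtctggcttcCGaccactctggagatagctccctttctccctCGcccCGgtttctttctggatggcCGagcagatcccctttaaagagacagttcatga

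The start regions of the marked genes differed in their letters. The first Runx1 promoter held 2 CG pairs and the second 35, against a median of 7 over the 32851 promoters of the table, with quartiles of 3 and 20. Myb had 40 CG pairs, the most of the 10, and 3.91% of all promoters had as many. The first Gata2 promoter had 32 and the second 29. The first, second and last Erg promoters had 16, 2 and 4, and the first and second Mecom promoters 19 and 9. Motifs were searched on both strands. The RUNX letters TGTGGT occurred 2 times in the first Runx1 promoter, without overlapping each other, and in none of the other 9, while 16.8% of all promoters held them. The GATA letters AGATAA occurred 1 time, in the last Erg promoter, against 11.2% of all promoters. The ETS letters CGGAAG occurred 1 time, in the second Mecom promoter, against 16.9% of all promoters. A match describes these letters only.

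For each peak the authors' list gives a pileup, which is the coverage of pooled H3K79me2 reads, a fold enrichment of that pileup over the input-based control background, and a −log10 q of the peak caller. The pileup and fold may be averages over a whole peak, because nothing in the labels states how the caller was run. Of the 7 members, 3 had a fold of at least 4, against 29.3% of all peaks. The same 3 had a −log10 q of at least 10, against 36.4% of all peaks, and 1 was at least 50 kb wide, against 4.6%. The median fold of the 7 was 2.02 and that of the list 2.28. They fell into separate kinds, because the 3 strong domains had −log10 q of 33.04 to 97.7 and the 4 weak peaks had folds of 1.86 to 2.02, pileups of 20.97 to 23.4 and −log10 q of 1.57 to 2.24.

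**Figure D1:**
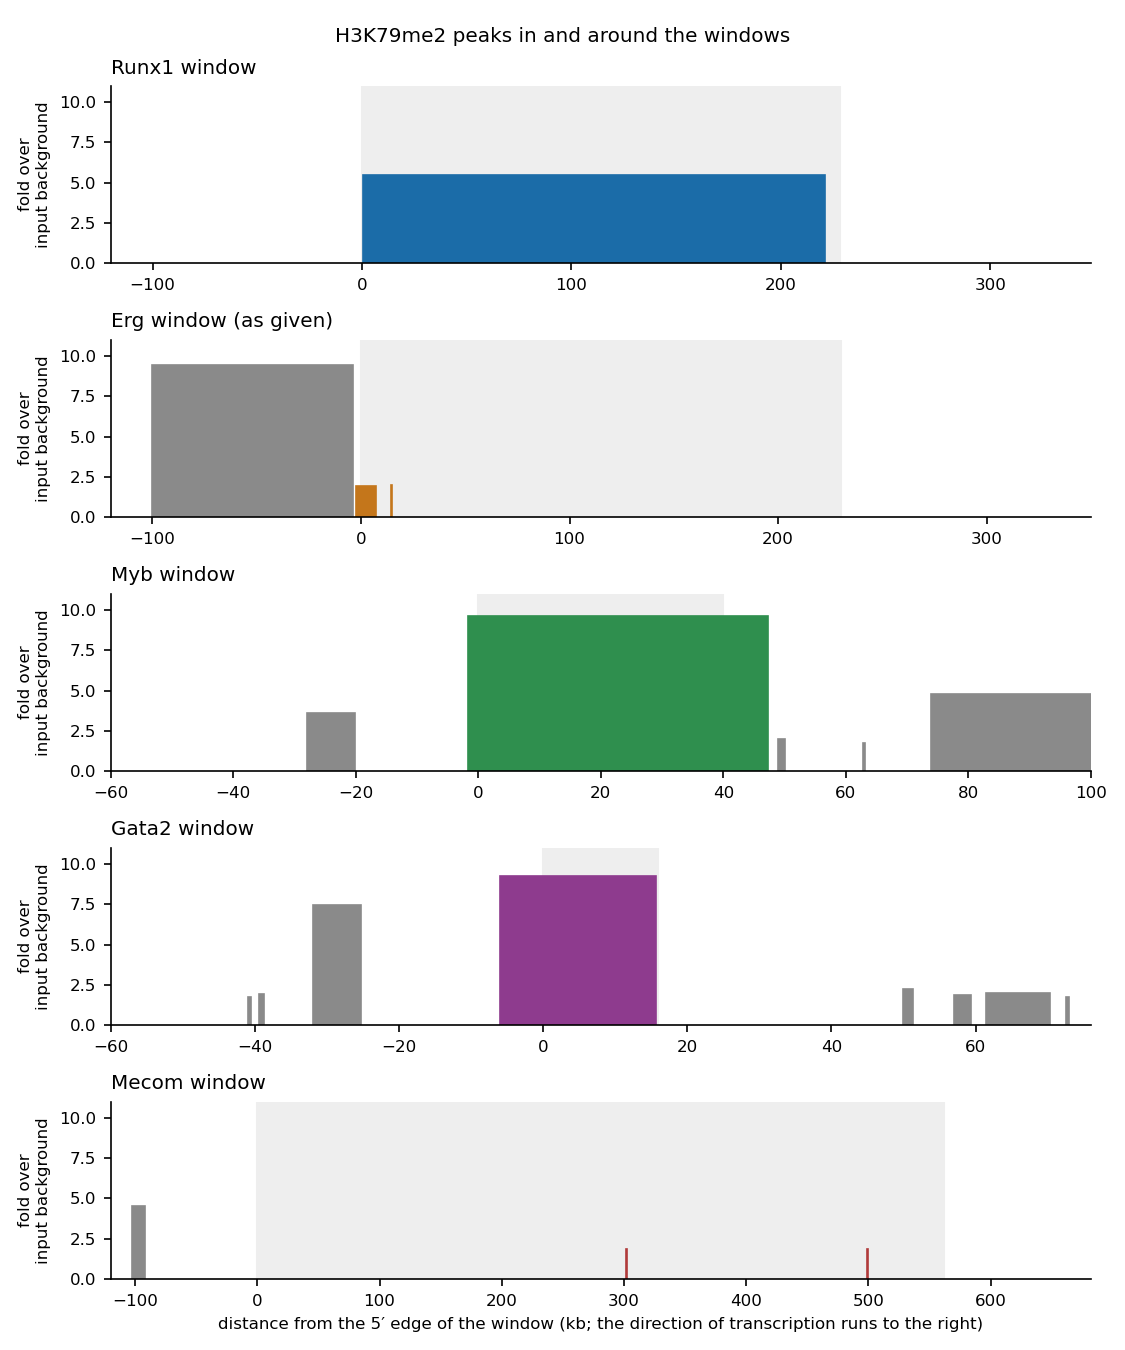
Maps of the 5 windows (grey shading) with H3K79me2 peaks drawn as blocks whose height is the authors' fold over the input background; the x axis is the distance from the 5′ edge of the window in kb, with transcription running to the right. Coloured blocks overlap the window and grey blocks do not: Runx1, Myb and Gata2 lie under 1 block each, Mecom holds 2 narrow ones, and the block of fold 9.43 beside the Erg window starts 3.84 kb outside it.

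Runx1 lay under a single H3K79me2 domain that ran over nearly its whole length. The domain, chr16:92606774-92827478, was 220.7 kb wide and covered 96.8% of the Runx1 window, against 7.99% of the span of chromosome 16. It began 0.522 kb inside the 5′ edge of the window and ended 6.77 kb short of its 3′ edge. The gene itself spans 224.6 kb in GRCm38. Only 5 of the 18992 peaks were wider, and none of the 637 on chromosome 16. Of the 414 windows of the same length tiled along chromosome 16, none was covered as much, the highest reached 90.99% and 248 held no covered base. The tiles lay on a fixed grid that kept the Runx1 domain in, so the highest may hold part of it. Because the window was set around the gene and its domain is the widest of the chromosome, this count adds little to the width.

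The level over Runx1 was moderate for a domain of that size. The fold was 5.50, the pileup 69 and the −log10 q 33.04. A higher fold was found in 18.6% of all peaks, and in 96 of the 154 peaks of at least 100 kb, whose median fold was 6.27 with quartiles of 4.54 and 8.11. Of the 11 peaks of at least 200 kb, 6 had a higher fold. Runx1 has a distal and a proximal promoter, which lie 128.7 kb apart in GRCm38. The CG-poor first and the CG-rich second promoter printed above thus differ in kind, while the list shows no break in the domain along the gene, although an average over 220.7 kb cannot show how the level varies within it. Runx1 also stood alone: no other peak lay within 100 kb of its window, the next on the 3′ side, towards Clic6 by the gene order of GRCm38, was 134.2 kb away with a fold of 1.76, and the next on the 5′ side was 364.3 kb away with a fold of 1.99.

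Myb carried the highest fold and pileup of the members. Its domain, chr10:20835760-20884613, measured 48.9 kb and had a fold of 9.62, with a pileup of 142.8 and a −log10 q of 97.7. It covered the whole Myb window, against 8.95% of the span of chromosome 10, and passed the 5′ edge by 1.61 kb and the 3′ edge by 7.24 kb. Of 3171 windows of that length tiled along chromosome 10, 47 were covered throughout as well. Only 2.53% of all peaks had a higher fold and 0.953% a higher pileup. Among the 2352 peaks of 20 to 50 kb, whose median fold was 5.75, 205 had a higher one. The control background under the Myb domain was 13.96, computed from pileup and fold, and only 0.763% of peaks had a higher one, so its fold was set against a higher background than that of the other members, 10.8 to 12.1. The part of this background in the fold was not tested.

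Further peaks, mostly of low fold, lay around Myb. Within 100 kb of the window lay 8 further peaks, 1 of them with a fold of at least 4, against 29.3% of all peaks. The nearest on the 5′ side, towards Hbs1l, was 7.74 kb wide with a fold of 3.63, 20.1 kb from the window. The nearest on the 3′ side, towards Ahi1, was 1.23 kb wide with a fold of 1.98.

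Gata2 was covered by a domain almost as strong as that of Myb. The domain, chr6:88136080-88157646, measured 21.6 kb, and its fold was 9.27 at a pileup of 117.7 and a −log10 q of 81.2. It covered 97.8% of the Gata2 window, against 8.36% of the span of chromosome 6, and 348 of 9138 windows of that length tiled along chromosome 6 were covered more. The domain began 5.92 kb outside the 5′ edge and ended 0.354 kb short of the 3′ edge, so 72.6% of it lay in the window. The gene spans 13.1 kb in GRCm38, with start sites 4.77 kb apart whose promoters are both CG-rich. Among the 2352 peaks of 20 to 50 kb, 260 had a higher fold. Within 100 kb lay 13 further peaks, of which 2 had a fold of at least 4, against 29.3% of all peaks. The nearest on the 5′ side lay 25.3 kb from the window, was 6.62 kb long and had a fold of 7.45.

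The 3 domains differed more in width than in level, and the wider domains lay over the longer genes. In GRCm38 the genes span 224.6 kb for Runx1, 36.1 kb for Myb and 13.1 kb for Gata2. The widths are therefore not compared apart from gene length. Runx1 was 4.52 times as wide as Myb and 10.2 times as wide as Gata2, while the fold of Myb was 1.75 times and that of Gata2 1.68 times the fold of Runx1. The fold of Myb was 1.04 times and its pileup 1.21 times that of Gata2. With 1 pooled value for each domain, it cannot be said whether any of these neighbours in the order differ beyond the spread between libraries.

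**Figure D2:**
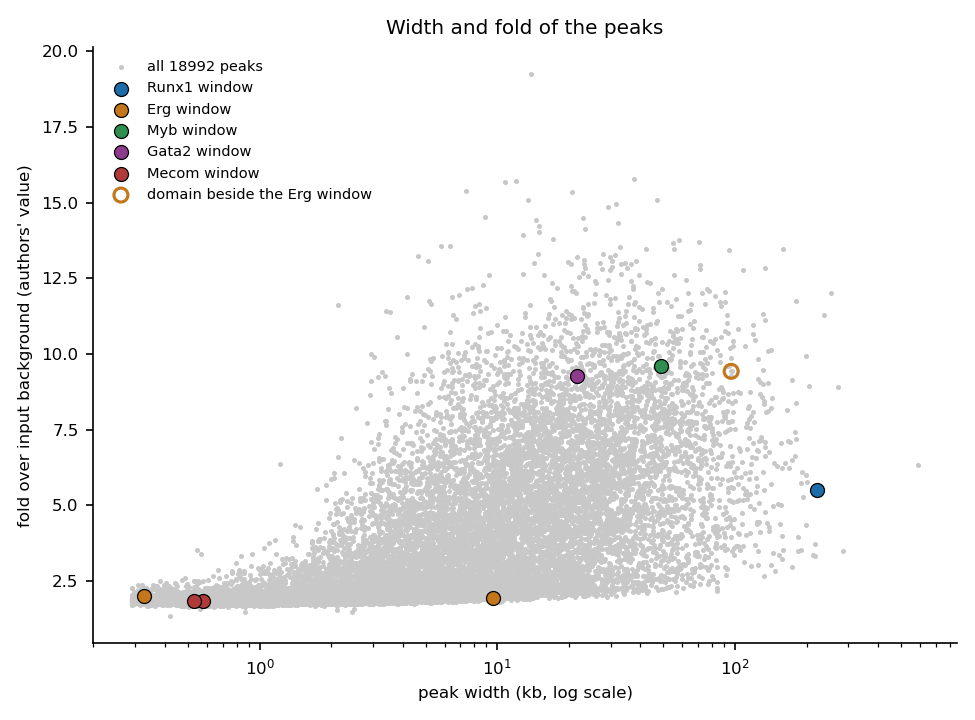
Width (x axis, kb, log scale) and the authors' fold over the input background (y axis) of all 18992 peaks in grey, with the 7 members as filled circles and the 96.4 kb domain beside the Erg window as an open circle. Myb and Gata2 sit high at 48.9 and 21.6 kb, Runx1 lies far right at a fold of 5.50, and the 4 weak members lie along the lower edge.

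Mecom was nearly free of the mark. Its window of 562 kb held 2 short peaks, which covered 0.197% of it, against 7.29% of the span of chromosome 3. The first, chr3:29910397-29910973, measured 0.577 kb, with a pileup of 20.97, a −log10 q of 1.57 and a fold of 1.86. It lay 499.03 to 499.6 kb from the 5′ edge of the window. The second Mecom promoter, from which EVI1 is transcribed, lies 496.6 kb downstream of the first in GRCm38, and its distance to this peak was not measured in mm9. The other peak, chr3:30107844-30108372, measured 0.529 kb, with a pileup of 23.4, a −log10 q of 1.71 and a fold of 1.86, and lay 301.6 kb from the 5′ edge.

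Low coverage was common for windows of that length. Of the 274 windows of 562 kb tiled along chromosome 3, 146 were covered more than the Mecom window and 124 held no covered base, with a median of 0.759%. The nearest peak outside was on the 5′ side, towards Actrt3, 91.7 kb from the window and 10.5 kb wide with a fold of 4.53. On the 3′ side no peak was listed for 1139.7 kb. The lowest pileup in the list is 19 and the lowest −log10 q 1.02, so weaker marking of Mecom would not appear in it.

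**Figure D3:**
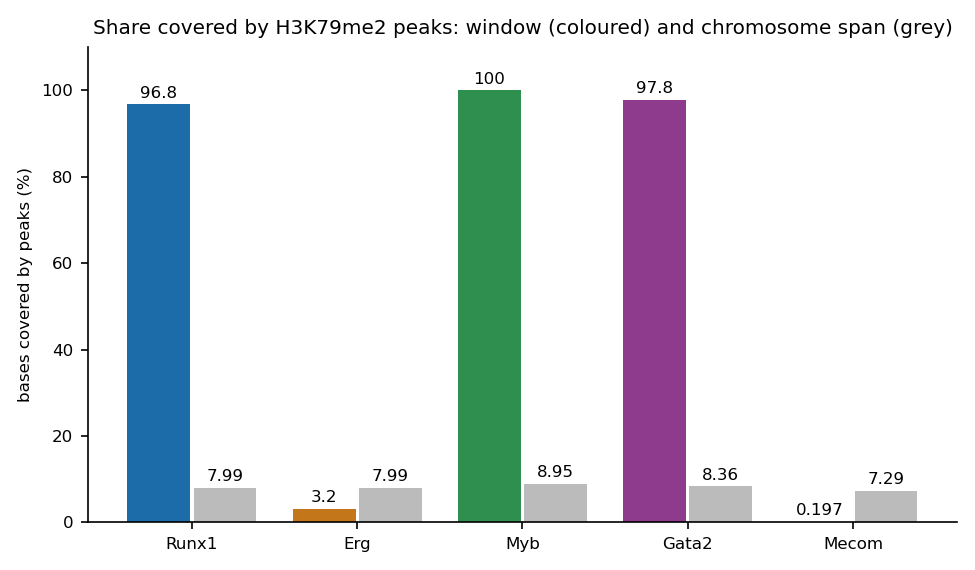
Share of bases covered by H3K79me2 peaks (y axis, %), for each window (coloured, left) and for the span from the first to the last peak of its chromosome (grey, right). The Runx1, Myb and Gata2 windows are covered by 96.8%, 100% and 97.8%, and the Erg window as given and the Mecom window by 3.20% and 0.197%, below their chromosomes.

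The window given for Erg held 2 weak peaks at its 5′ end. The wider, chr16:95580963-95590583, measured 9.62 kb, with a pileup of 21.9, a −log10 q of 1.88 and a fold of 1.93, and 73.2% of it lay in the window. The narrower, chr16:95573312-95573638, measured 0.327 kb, with a pileup of 23.1, a −log10 q of 2.24 and a fold of 2.02. Together they covered 3.20% of the window, against 7.99% of the span of chromosome 16, and 138 of 411 windows of that length tiled along the chromosome were covered more. Just outside, 3.84 kb from the 5′ edge and 1.26 kb from the wider peak, began a domain of 96.4 kb, chr16:95591845-95688202, with a fold of 9.43, a pileup of 121.5 and a −log10 q of 86.5.

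The placement of the windows was checked against the peaks, since no mm9 annotation was used. Start sites of the protein-coding genes within 3 Mb of each of the 5 genes were taken from GRCm38.p6 and moved together by −500 to 500 kb, and at each shift the genes whose point 2 kb downstream of a start lay in a peak with a fold of at least 4 were counted. The offset of a window was taken between its midpoint and that of the GRCm38 gene. Around Runx1, 19 of 49 genes met a peak at shifts of −1.5 to 1.5 kb, against a median of 8 over all shifts. The Runx1 window is offset by 0.23 kb from the GRCm38 gene. Around Myb the count was highest, 13 of 45, at −281.5 to −278.5 kb, and the window is offset by −279.96 kb. Around Gata2 it was highest, 27 of 95, at −50.5 to −48.5 kb, and the window is offset by −50.5 kb. Around Mecom it was highest, 12 of 34, at −102 to −99.5 kb, and the window is offset by −101.5 kb. These 4 windows thus sit where the peaks place their genes. Counted within 1 Mb, the offsets of the Runx1 and Mecom windows were not among the best shifts. Runx1 had 6 of 21 genes at its offset, against at most 7 at shifts between −14 and 399.5 kb, and Mecom had 3 of 14, against at most 4 at shifts between −141 and 4 kb, so the placement of both rests on the wider count.

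The Erg window did not sit where the peaks place its gene. Its midpoint lies within 0.116 kb of that of Erg in GRCm38, and at this offset 5 of 33 genes met a peak. The count was highest, 11 of 33, at shifts of 222 and 222.5 kb, against a median of 3. Within 1 Mb, 6 of 16 genes met a peak at 222 to 226 kb and 2 at the offset of the window. With Erg itself left out of the count, the same shifts were best, with 10 of 32 other genes within 3 Mb and 5 of 15 within 1 Mb, so the shift does not rest on Erg meeting a peak. The best shifts within 3 Mb were also the same for the other 4 genes when each was left out of its own count. The values of the window can therefore not be read as H3K79me2 over Erg, and these counts place the gene about 222 kb farther along chromosome 16 in mm9. The 3 Mb surroundings of Runx1 and Erg overlap on that chromosome but gave different best shifts. A single shift thus cannot hold for all genes counted, and the place where the offset changes was not located.

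**Figure D4:**
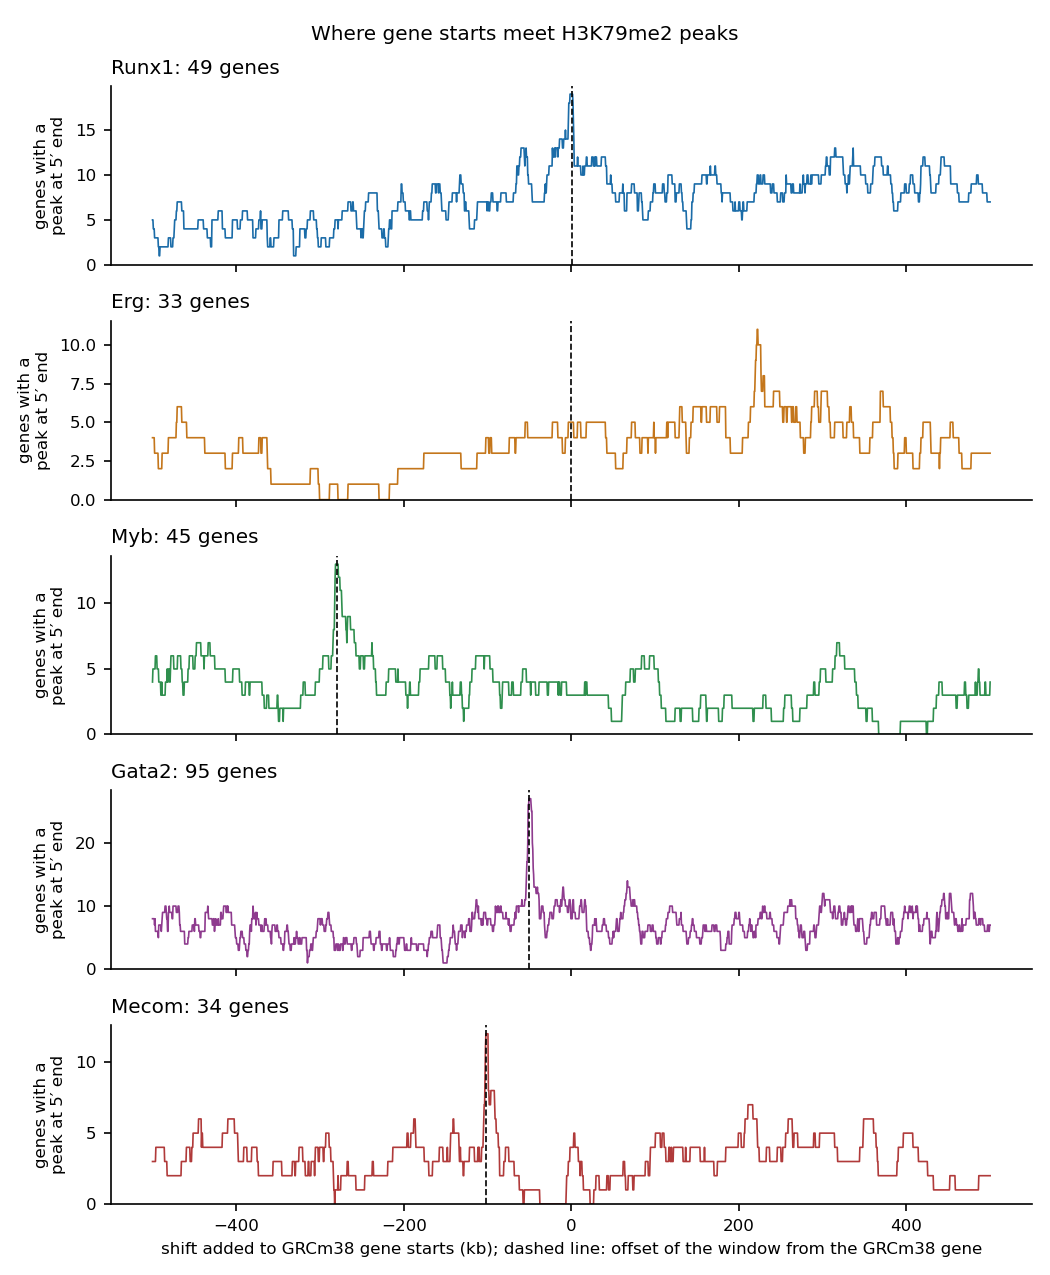
Number of genes whose point 2 kb downstream of the start lay in an H3K79me2 peak with a fold of at least 4 (y axis), for each shift in kb added to GRCm38 start sites within 3 Mb of the gene (x axis); the dashed line is the offset of the window from the GRCm38 gene. The highest counts of Runx1, Myb, Gata2 and Mecom fall on the dashed line, while that of Erg, 11 of 33 genes, falls at 222 kb and its dashed line near 0.

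Moved by 222 kb, the Erg window took in the strong domain and was covered by 46.2%. It held 3 peaks, namely the domain of 96.4 kb, the weak peak of 9.62 kb, which also touches the window as given, and a peak of 0.347 kb at chr16:95792675-95793021 with a fold of 2.03. The fold of the domain, 9.43, lies between those of Gata2 and Myb, and its width between those of Myb and Runx1. Only 0.927% of all peaks were wider and 2.85% had a higher fold, and among the 720 peaks of 50 to 100 kb, whose median fold was 6.63, 99 had a higher one. Unlike the domains of Runx1, Myb and Gata2, it did not reach the 5′ end: it ran from 121.8 to 218.2 kb from the 5′ edge of the moved window, and 0.326% of the covered bases lay on the 5′ side of the midpoint. The 3 Erg promoters of GRCm38 would lie 1.41, 57.6 and 128.7 kb from that edge, so the last, printed above with 4 CG pairs, would lie 6.85 kb inside the upstream end of the domain, and the first and second outside it. These distances rest on the estimated shift and hold only to within a few kb, and the move was chosen after the peaks had been seen.

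Over the 5 windows as given, 26.5% of 1076 kb was covered, against 8.71% of the spans of all chromosomes, and the Runx1 domain made up 77.5% of the covered bases. The windows were set around genes, whereas the spans and tiles also take in DNA between genes. No share over gene bodies was computed, here or for the single windows. The total also counts the Erg window as given, which cannot be read as Erg. With the Erg window moved the covered share was 35.7%, and with it left out 32.8%.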

How the data were processed

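MACS2 is named as the peak caller and mm9 as the build in the submitters' processing notes, which also list the programs CASAVA 1.8.2, bedtools 2.25.0, GSNAP and SAMtools, without their settings. The deposited table holds 1 row for each peak of the combined libraries, and per the file headers gives its position, length, pileup (a coverage signal), −log10 p, fold enrichment (a ratio over the control background) and −log10 q. All of these values are the authors' own. They describe and order peaks inside that list and are compared with nothing else, and the −log10 p values were left aside.

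Overlaps, covered bases, ranks and same-length tiles from each chromosome's first peak were computed from them. No member peak was left out of the tiles, so each count of tiles may include the locus itself. The control background was taken as (pileup + 1) / fold − 1. Windows, genes and earlier results of these data were known when members, lists and checks were chosen. The rule named every peak of a locus with 6 or fewer, which covers all 7 members. Strands, promoters, gene order and gene lengths come from RefSeq tables of GRCm38.p6. Because that build differs, a list of 15 other progenitor genes was not run. The placement check estimates a shift between builds from the peaks and converts no coordinates exactly. Counting error and replicate spread cannot be given, since read totals and single libraries are not analysed here. Overlaps, covered bases, the share on the 5′ side, the background formula, the merging of peaks and the placement count were tested on simulated data. All genes of a simulated region had the same shift. Ranks, tiles and promoter letters were not tested in this way. Tables were handled with pandas 2.3.3 and numpy 2.4.6 under Python 3.11.15, and plots drawn with matplotlib 3.10.9.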

Additional observations from a re-analysis of the deposited data

How the results depend on the processing

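No paired analysis was possible because all libraries enter 1 list, and for the same reason no replicate could be left out. The 7 members became 3 with −log10 q minimums of 5 or 10, or a fold minimum of 4, and these were the domains of Runx1, Myb and Gata2. Counting peaks wholly inside a window left 4, since the Myb and Gata2 domains and the 9.62 kb peak of the Erg window pass the edges. The covered share of the windows, 26.5% as given, was 25.7% under each of those 3 thresholds, 20.6% for peaks wholly inside, 26.3% with windows widened by 10 kb and 25.9% with windows narrowed by 2 kb. The Erg window changed it most, to 32.8% left out and 35.7% moved; these 2 of the 11 alternatives were chosen after seeing the data, as was leaving each gene out of its own placement count. The median fold of 2.02 rested on which weak peaks counted: it was 9.27 under the 3 thresholds, 1.94 for peaks wholly inside, 3.72 for peaks of at least 500 bp, 5.50 with peaks merged across 3 kb or the Erg window left out, and 3.77 with it moved. Of 168 values of single loci, 129 were counted as unchanged and 39 as moved. Unchanged meant a difference under 0.05 or, for numbers of peaks, a ratio of at most 1.5. The tally is no measure of robustness, because many values could not move. Under each of the 3 thresholds, 12 values were unchanged, those of Runx1, Myb and Gata2, whose only peaks pass them. The number of peaks for Erg, 2 as given, was 3 with its window widened or moved. It counted as unchanged although the neighbouring domain came in. Where a locus kept no peak, its highest fold and its share of covered bases on the 5′ side did not exist and were not counted. This was so for Erg and Mecom under the 3 thresholds, and for Myb and Gata2 with peaks wholly inside. The highest fold in the Erg window, 2.02, was 9.43 with windows widened by 10 kb and 8.75 with peaks merged across 3 kb, because the neighbouring domain then counts. Peaks below a pileup of 19 are not in the list.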

Other observations

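Within 250 kb of the Myb and Gata2 windows lay other strong H3K79me2 regions. They were chosen after their values were seen, and their genes were not assigned. On the 5′ side of Myb, where Hbs1l is the next protein-coding gene in GRCm38, chr10:21015334-21028865 measured 13.5 kb at a fold of 9.25, its −log10 q being 83.6. On the 3′ side, towards Ahi1, chr10:20775056-20809107 was 34.1 kb wide with a fold of 4.77. On the 5′ side of Gata2, towards Rpn1, the region with the highest fold within 250 kb was chr6:87951792-87996033, 44.2 kb wide with a fold of 10.5. Closer to Gata2, chr6:88033127-88055336 was 22.2 kb wide with a fold of 8.31, and chr6:88110092-88116707 reached a fold of 7.45 over 6.62 kb. On the 3′ side of Gata2 the nearest peak, chr6:88191945-88193285, had a −log10 q of 3.34, and a broad region, chr6:88325900-88396125, began 183.9 kb from the 5′ edge of the window, measured 70.2 kb and had a −log10 q of 13.9 at a fold of 3.75.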
